A study of Mus musculus with 24 samples.

Results

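RNA of 5 libraries from testes of mice heterozygous for a Ddx4 knock-in allele was compared between a fraction labelled CB and whole round spermatids. Ddx4 encodes a DEAD-box RNA helicase of the germ line. The 3 libraries titled RNA_WK_CB_1 to 3, called CB libraries here, were set against the 2 libraries titled RNA_WK_1 and RNA_WK_2, called whole spermatid libraries here. They are 5 of 24 libraries in the series, of which 12 measured long RNA. All 5 carry the genotype label DDX4 heterozygous knock-in and come from testis cells released by digestion in a pair of steps. The series title speaks of a tagging knock-in, and the labels give no strain, age, number of animals or position of the tag. Per the labels' protocol, RNA came from enriched fractions, so other cells may be present. The cell type is labelled Round spermatids for the whole spermatid libraries and Germ cells for the CB libraries. A NEBNext Ultra kit and an input of 1 ug total RNA served for the whole spermatid libraries, and no RNA selection step is stated for them. The CB libraries were made from 25 ng of RNA with a strand-specific Hieff dual-mode kit, with neither selection of polyadenylated RNA nor removal of ribosomal RNA. Kind of library, kit, input and labelled cell type change together in this comparison, and their parts cannot be told apart. The same contrast was computed in homozygous knock-in libraries (3 CB, 2 whole spermatid), which share no library with the heterozygous ones.

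The labels leave the letters CB unexplained, and the series is about germ granules. As background, the chromatoid body is the large cytoplasmic germ granule of round spermatids. It gathers the helicase DDX4, tudor-domain proteins, PIWI proteins and their small RNAs, and lies close to the nucleus. Round spermatids make messenger RNAs for protamines, the acrosome and the tail, many of which are stored before they are translated. Precursors of pachytene PIWI-interacting RNAs (piRNAs) are long transcripts of RNA polymerase II that are cut into small RNAs in meiotic and haploid germ cells.

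The deposited tables gave expected counts for 55364 gene ids found in both kinds of library, and 37 further ids, all mitochondrially encoded, in the CB tables alone. Total counts were 14.2 to 14.7 M in the CB libraries and 15.3 and 19.1 M in the whole spermatid libraries. The mean fragment length implied by the deposited effective lengths was 219.1, 229.2 and 233.5 bases in the CB libraries and 319.5 and 315.4 bases in the whole spermatid libraries. CB library 1 stood apart from CB libraries 2 and 3. Its Spearman correlation with them over 20159 genes was 0.971 and 0.972, against 0.983 between libraries 2 and 3 and 0.991 between the whole spermatid libraries. Of 8139 genes with a mean of at least 10 CPM (counts per 1 M, scaled by edgeR's TMM factors), 96 were at least 2-fold lower in CB library 1 than in both others and 21 were at least 2-fold higher.

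Of 20159 genes tested, 7161 (35.5%) were called higher in CB libraries and 5444 (27%) lower, by edgeR's quasi-likelihood test with an adjusted p under 0.05 and a difference of at least 2-fold. These shares are the background for every count of genes in a list below. The labels do not say that libraries of a group came from separate animals, so p-values measure the spread between these libraries, which may be technical. The median log2 difference over all tested genes was 0.24 and the quartiles were -1.14 and 1.78. Scaling by library totals moved that median to 0.40 and TPM (transcripts per 1 M, a scale per length) moved it to 0.65, so differences near 0 depend on the scale. On the TPM scale (limma) 7624 genes were called higher and 2988 lower. In bulk RNA, fewer cells of a type and less RNA per cell cannot be told apart. Without CB library 1 the calls were 7005 higher and 5385 lower.

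RNA classes took different shares of counts in the 2 kinds of library. Protein-coding genes took 84.2%, 81.98% and 82.01% of counts in the CB libraries and 96.02% and 95.97% in the whole spermatid libraries. Genes whose ids had no RefSeq match took 12.98%, 15.5% and 15.4% of counts in the CB libraries and 1.36% and 1.35% in the whole spermatid libraries. These values did not overlap between the kinds of library for either class. Long non-coding RNA genes took nearly the same share in both, with 1.75% ± 0.123 (SD, n = 3) in CB libraries and 1.70% ± 0.0285 (n = 2) in whole spermatid libraries. Pseudogenes took 0.586% ± 0.0114 and 0.815% ± 0.0114. These shares are descriptions without a test.

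**Figure D1:**
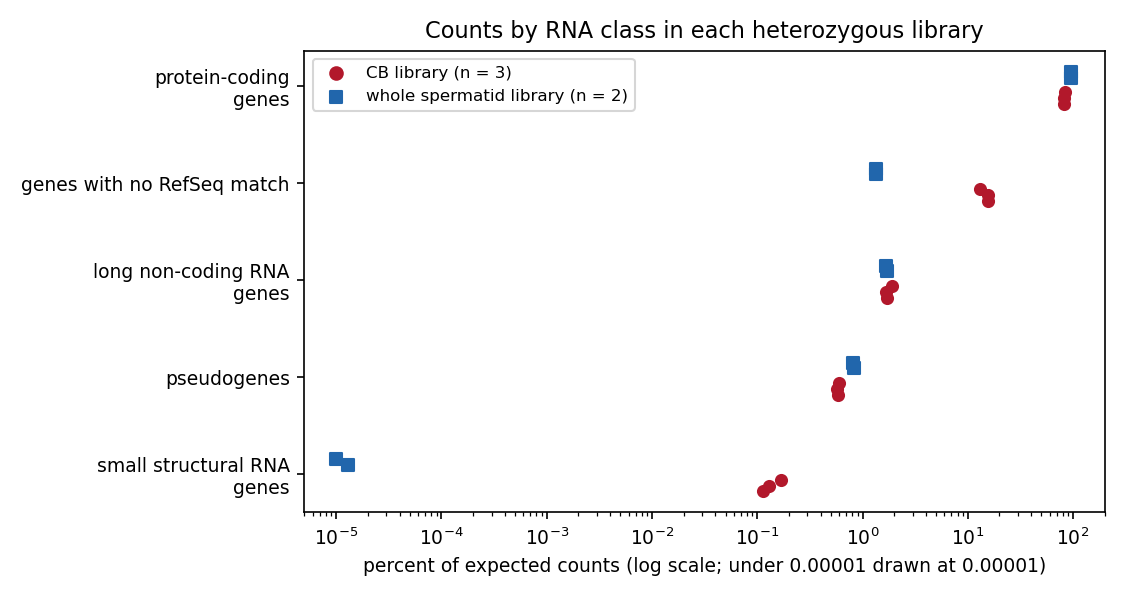
Percent of expected counts (horizontal log axis) taken by each RNA class (vertical axis), with 1 point per heterozygous library, circles for the 3 CB libraries and squares for the 2 whole spermatid libraries. Small structural RNA genes sit at 0.114% to 0.170% in CB libraries and at or next to 0 in whole spermatid libraries, while long non-coding RNA genes lie side by side.

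A single entry made up most of the unmatched class. CT010467.1, a gene model of 1849 bases with no RefSeq match, took 11.3%, 14.001% and 13.8% of counts in the CB libraries. It took 0.262% and 0.222% in the whole spermatid libraries, far below every CB library. Which RNA its reads come from, and whether that is ribosomal RNA, was not determined here. With this entry set aside, protein-coding genes held 95.0% to 95.3% of counts in CB libraries and 96.2% to 96.3% in whole spermatid libraries, so the class gap was close to the size of that entry. Lars2, the gene of mitochondrial leucyl-tRNA synthetase (ENSMUSG00000035202, chromosome 9, 123366927 to 123462675; positions here are those of RefSeq on GRCm38.p6), was the protein-coding gene of highest TPM in CB libraries. It stood at 7411, 10954 and 10563 CPM in the CB libraries and 190.3 and 200.3 in the whole spermatid libraries (log2 difference 5.63, SE 0.26, adjusted p = 8.62e-08). Whether the reads on Lars2 come from its messenger RNA was not tested. Akap12, which encodes a scaffold protein for protein kinase A, followed with 9576 ± 1733 CPM in CB libraries against 2543 ± 109 (log2 difference 1.91, SE 0.20, adjusted p = 1.58e-05). CT010467.1 held 6.54% to 6.89% of counts in the homozygous CB libraries, below all heterozygous ones.

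Small structural RNAs were present in CB libraries and next to absent in whole spermatid libraries. Of 2232 such genes, 41 had at least 10 counts in every CB library and 0 had so many in both whole spermatid libraries. All 41 that entered the test were called higher, but they could enter only through their CB counts, and 39 of them had 0 counts in both whole spermatid libraries. Rn7sk, the 7SK RNA that holds back the elongation factor P-TEFb (ENSMUSG00000065037, chromosome 9, 78175302 to 78175633), had 11134, 9762 and 8845 counts in the CB libraries and 0 and 0 in the whole spermatid libraries, at least 7093-fold higher if the empty group is given 3 counts in all. The 2 genes of 7SL RNA, the scaffold of the signal recognition particle, carried identical counts, so their reads were split between copies. Rn7s1 had 2077, 1600 and 1446 counts in the CB libraries and 0 and 1 in the whole spermatid libraries.

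Spliceosomal RNAs behaved in the same way. All snRNA genes summed to 17495, 12074 and 10757 counts in the CB libraries and 0 and 0 in the whole spermatid libraries. Rn7sk, described above, made up most of that sum, with 11134, 9762 and 8845 counts. Rnu2-10, a copy of U2 RNA, had 971, 294 and 252 counts in the CB libraries and 0 and 0 in the whole spermatid libraries, and 3 further gene models carried the same counts. CB library 1 was well above the others there, with 65.7 CPM against 19.5 and 16.8. Scarna2, a guide RNA of Cajal bodies, had 724, 719 and 651 counts in the CB libraries and 0 and 0 in the whole spermatid libraries and was even across CB libraries. Genes of small nucleolar RNAs summed to 323, 294 and 213 counts in the CB libraries and 0 and 0 in the whole spermatid libraries, and RNase MRP RNA to 1266, 909 and 757 counts in the CB libraries and 0 and 0 in the whole spermatid libraries. Ribosomal RNA genes of RefSeq (59 ids) held at most 2 counts in any of these libraries. Reads of ribosomal RNA may fall on other entries, so these counts do not measure how much of it the libraries hold.

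Length moved with this class. Of the 41 tested structural RNA genes, 36 (87.8%) were shorter than the mean fragment of the whole spermatid libraries, against 0.317% of all tested genes. Rn7sk, with 331 bases, and Scarna2, with 414 bases, are longer and were also at 0 in whole spermatid libraries. Rn7sk is close to the mean fragments of those libraries, 319.5 and 315.4 bases. The part of fragment length in the difference was not tested.

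MicroRNA genes were almost empty in both kinds of library, with 1 of 1194 reaching 10 counts in every CB library. That gene, Mir6236, had 16, 26 and 18 counts in the CB libraries and 0 and 0 in the whole spermatid libraries. Its mature sequence is shown because it was the only microRNA gene to enter the test; it is taken from RefSeq (GRCm38.p6, chromosome 9, 110281353 to 110281371, plus strand), with the seed, bases 2 to 8, in capitals.
mmu-miR-6236: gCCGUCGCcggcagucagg
The counts are of fragments assigned to the 123-base hairpin gene and say nothing of the mature form. In homozygous libraries the gene was too low to test.

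Most nuclear RNAs on a list were higher in CB libraries, while the class of long non-coding RNA genes went both ways. Of 1788 tested long non-coding RNA genes, 573 were called higher and 654 lower. From a list of nuclear long non-coding RNAs, 10 of 13 tested members were called higher and 0 lower, with a median log2 difference of 1.56. That median was 4.17 over the members with at least 50 counts in every library of a group. A member could pass that filter through its CB counts alone, so this higher median is no check of the first. Malat1, a nuclear speckle RNA (ENSMUSG00000092341, chromosome 19, 5795690 to 5802672), stood at 3436, 1840.2 and 2078 CPM in the CB libraries and 28.9 and 19.5 in the whole spermatid libraries. CB library 1 was the highest, and every CB library was far above both whole spermatid libraries (log2 difference 6.66, SE 0.37, adjusted p = 2.09e-07). Neat1, the scaffold of paraspeckles, had 100.5 ± 4.12 CPM in CB libraries against 2.16 ± 1.06 (log2 difference 5.56, SE 0.25, adjusted p = 7.74e-08). Kcnq1ot1, an imprinted antisense transcript, had 173 ± 24.97 CPM in CB libraries against 4.60 ± 0.163 (log2 difference 5.24, SE 0.19, adjusted p = 4.46e-08). Only the CB kit is stated to keep strand, so for antisense genes, reads of the opposite strand may be counted in whole spermatid libraries.

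Some genes were seen in 1 kind of library alone. With at least 10 counts in every CB library and 0 in both whole spermatid libraries there were 553 genes. Of these, 335 had no RefSeq match, 78 were pseudogenes, 68 protein-coding and 39 small structural. Among all shared ids these classes hold 16426, 8597, 21386 and 2232 genes. The same pattern held for 341 of them in the homozygous libraries. Gm10800 had 1527, 3492 and 5687 counts in the CB libraries and 0 and 0 in the whole spermatid libraries, at least 2545-fold higher, and its 3 CB values were uneven. Gm10801 and Gm21738, further models without a RefSeq match, were at 0 in both whole spermatid libraries too (at least 939-fold and 633-fold higher).

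The reverse pattern held for 25 genes, and for 11 of these also in homozygous libraries. This number and the 553 above are not on equal terms, because the kinds differ in number of libraries and in genes seen. Genes with at least 10 counts numbered 19035 to 19332 in CB libraries and 17073 and 16466 in whole spermatid libraries. Gm26657, listed as protein-coding (ENSMUSG00000096930, chromosome 4, 56740005 to 56741425), had 0, 0 and 0 counts in the CB libraries and 19260 and 15883 in the whole spermatid libraries, at least 16389.8-fold lower in CB. In homozygous libraries it had 0, 0 and 0 counts in CB and 18462 and 17185 in whole spermatids. The part of strand and of how reads were assigned to Gm26657 was not tested. Gm29216 had 0, 0 and 0 counts in the CB libraries and 11341 and 9619 in the whole spermatid libraries and Gm28439 had 0, 0 and 0 counts in the CB libraries and 3518 and 2956 in the whole spermatid libraries. Gm28437 was not empty in CB libraries, with 103, 31.5 and 33.8 CPM in the CB libraries and 827 and 859 in the whole spermatid libraries. As background, these last 3 gene models are nuclear copies of mitochondrial sequence. The whole spermatid tables list no mitochondrially encoded gene, whereas in the CB tables such genes held 0.354% to 0.610% of all counts; the part of this difference between the tables was not tested.

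**Figure D2:**
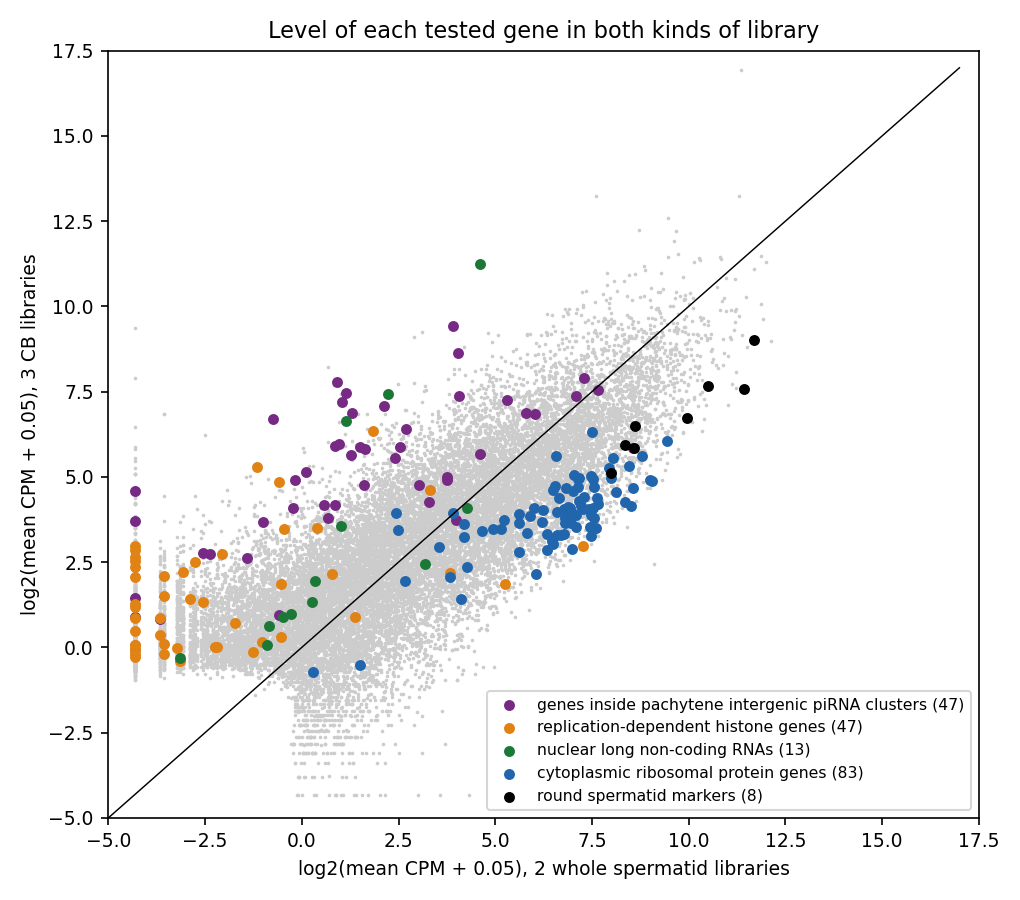
Each grey point is 1 of 20159 tested genes, with its mean level in the 2 whole spermatid libraries on the horizontal axis and in the 3 CB libraries on the vertical axis, both as log2(CPM + 0.05). Coloured points are members of 5 lists, and the line marks equal levels; histone and pachytene cluster genes lie mostly above it, ribosomal protein genes and round spermatid markers below.

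Genes lying inside intergenic pachytene piRNA clusters were mostly higher in CB libraries. These loci give rise to most piRNAs of meiotic and haploid germ cells. The list holds 69 genes in 49 clusters, of which 21 had no count in any of the 5 libraries, all but Gm24120 being microRNA models. Of it, 40 of 47 tested members were called higher and 1 lower, with a median log2 difference of 4.21, against 35.5% of all tested genes called higher. All 47 had at least 10 counts in every CB library and 36 had so many in both whole spermatid libraries, so the entry of the other genes into the test rested on CB counts. Their summed level was 4019.6 to 4117 CPM in the CB libraries and 1210.0 to 1225 in the whole spermatid libraries. After subtracting the median of protein-coding genes of the same length class, the list's median was 3.99. The classes were under 500, 500 to 1000, 1000 to 2000, 2000 to 4000, 4000 to 8000, and 8000 bases and over. Length within a class was not matched, and this holds for every median given relative to length below. In homozygous libraries the list gave 38 of 47 higher, 1 lower, median 4.17.

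Gm21269 (ENSMUSG00000108448, chromosome 7, 73825924 to 73836549), the member of most counts, stood at 632, 707 and 704 CPM in the CB libraries and 14.9 and 14.97 in the whole spermatid libraries (log2 difference 5.51, SE 0.16, adjusted p = 3.93e-08). It lies in a cluster that gave 1.26% of cluster reads in the small RNA libraries of heterozygous round spermatids (mean of 2). Gm10619, in the neighbouring cluster (ENSMUSG00000074067, chromosome 7, 73808222 to 73816503), stood at 156, 186 and 189 CPM in the CB libraries and 2.04 and 2.29 in the whole spermatid libraries (log2 difference 6.35, SE 0.19, adjusted p = 3.93e-08). The cluster of Gm10619 gave 2.55% of cluster reads. Both genes were tight within each kind of library and far apart between them.

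Gm10505 (ENSMUSG00000073430, chromosome 17, 27325196 to 27344832), in a cluster with 2.46% of cluster reads, stood at 115, 117 and 120.4 CPM in the CB libraries and 2.04 and 2.77 in the whole spermatid libraries (log2 difference 5.62, SE 0.18, adjusted p = 3.93e-08). Gm21221, in a cluster with 3.21% of cluster reads, was low in both, at 6.77, 5.90 and 5.61 CPM in the CB libraries and 0.511 and 0.139 in the whole spermatid libraries (log2 difference 4.13, SE 0.42, adjusted p = 1.12e-05). Aym1 (cluster share 2.32%) had 12.9 ± 1.53 CPM in CB libraries against 0.448 ± 0.151 (log2 difference 4.85, SE 0.31, adjusted p = 4.64e-07). Gm36617, in a cluster with 2.72% of cluster reads, differed least of these, with 1.87 ± 0.347 CPM in CB libraries against 0.618 ± 0.0894 (log2 difference 1.58, SE 0.40, adjusted p = 0.00506). Gm21221, Gm36617, Gm10619, Gm10505 and Aym1 lie in the 5 intergenic pachytene clusters of most reads among those with a tested gene, and were chosen after values had been seen. Gm7787 and Gm31466 had 0 counts in both whole spermatid libraries and were at least 255-fold and 138-fold higher in CB libraries.

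A single member went the other way. 1700008K24Rik (ENSMUSG00000101012, chromosome 17, 49112264 to 49113533) stood at 65.7, 52.02 and 54.3 CPM in the CB libraries and 375 and 377 in the whole spermatid libraries (log2 difference -2.71, SE 0.14, adjusted p = 1.21e-07), and its cluster gave 0.405% of cluster reads. Its transcript is short, 794 bases, and short transcripts as a group were lower in CB libraries, as described further on. The part of its length was not tested.

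As background, many pachytene clusters are switched on by the transcription factor MYBL1. Mybl1 itself, also chosen after values had been seen, had 129 ± 24.8 CPM in CB libraries against 27.3 ± 3.61 (log2 difference 2.24, SE 0.19, adjusted p = 3.26e-06). RefSeq promoter windows, from 250 bases before to 50 after the start, were found for 37 of the 69 genes. The MYB-type letters TAACNG, on either strand, occurred in 16 of these 37 genes, in 25.9% of all 27025 genes with a window and in 23.3% of all 32851 windows. The stricter TAACGG occurred in 6 of 37 genes and in 3.15% of all genes, and AACCGTT in 1 of 37 and 1.05%. The shorter AACGG occurred in 19 of 37 and 19.6%, and AACTG in 19 of 37 and 48.2%. These 5 patterns overlap in part, TAACGG lying within both TAACNG and AACGG matches. A match is a description of letters and not a binding site.

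The windows of a strongly raised gene (Gm10505), of 4933440M02Rik, chosen for its 5 matches, and of the member that was lower (1700008K24Rik) are shown 5′ to 3′ on the gene's strand (GRCm38.p6), with each TAACNG on either strand in capitals. They lie at chr17:27324946-27325245 (plus), chr7:125349737-125350036 (minus) and chr17:49113484-49113783 (minus).
Gm10505: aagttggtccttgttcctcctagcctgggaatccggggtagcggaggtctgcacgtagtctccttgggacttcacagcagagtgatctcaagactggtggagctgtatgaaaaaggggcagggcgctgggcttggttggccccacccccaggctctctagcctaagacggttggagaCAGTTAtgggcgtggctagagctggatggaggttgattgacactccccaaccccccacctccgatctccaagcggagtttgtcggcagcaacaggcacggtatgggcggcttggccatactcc
4933440M02Rik: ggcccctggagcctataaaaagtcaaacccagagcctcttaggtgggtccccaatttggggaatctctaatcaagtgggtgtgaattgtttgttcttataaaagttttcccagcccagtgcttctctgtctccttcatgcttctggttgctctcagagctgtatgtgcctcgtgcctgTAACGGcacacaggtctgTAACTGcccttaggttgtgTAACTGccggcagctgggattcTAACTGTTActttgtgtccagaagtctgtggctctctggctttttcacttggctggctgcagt
1700008K24Rik: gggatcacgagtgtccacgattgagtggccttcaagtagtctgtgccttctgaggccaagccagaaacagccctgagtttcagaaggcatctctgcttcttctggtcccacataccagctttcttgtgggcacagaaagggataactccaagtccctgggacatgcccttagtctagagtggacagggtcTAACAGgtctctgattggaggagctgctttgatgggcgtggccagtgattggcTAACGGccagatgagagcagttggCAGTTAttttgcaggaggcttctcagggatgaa
The windows hold 1, 5 and 3 matches. 4933440M02Rik stood at 148, 162 and 153 CPM in the CB libraries and 40.3 and 38.96 in the whole spermatid libraries (log2 difference 1.96, SE 0.12, adjusted p = 4.67e-07). The lower gene carries more of these letters than Gm10505.

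Host genes of piRNA clusters, mostly protein-coding genes whose transcripts also yield piRNAs, were shifted less. Of prepachytene hosts, 60 of 80 tested members were called higher and 4 lower, with a median log2 difference of 1.90. Of hybrid hosts, 19 of 25 tested members were called higher and 0 lower, with a median log2 difference of 1.44. Of pachytene hosts, 5 of 7 tested members were called higher and 0 lower, with a median log2 difference of 2.17. Relative to protein-coding genes of the same length class the medians were 1.00, 0.83 and 1.56. Gm5878, a long non-coding host, had 148 ± 8.42 CPM in CB libraries against 8.62 ± 0.0675 (log2 difference 4.10, SE 0.14, adjusted p = 4.23e-08). Mroh4 and Nemp1 were not called, with differences of -0.77 and 0.67. On the TPM scale Nemp1 was called higher (1.11, limma adjusted p = 0.00198) and Mroh4 changed sign (0.12). In homozygous libraries the pachytene hosts gave 3 of 7 higher, 0 lower, median 0.73.

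Replication-dependent histone genes, whose messages end in a stem-loop and mostly lack a poly(A) tail, were mostly higher in CB libraries. Of these, 41 of 47 tested members were called higher and 3 lower, with a median log2 difference of 5.10, or 3.20 on the TPM scale. Their transcripts are short (median 534 bases), the length class that was otherwise lower in CB libraries. Of the 62 genes in the list, 27 had 0 counts in both whole spermatid libraries, so those could enter the test only through their CB counts. Hist1h1t, the testis-specific linker histone H1t (ENSMUSG00000036211, chromosome 13, 23695811 to 23696545), stood at 37.8, 102 and 104 CPM in the CB libraries and 3.86 and 3.26 in the whole spermatid libraries (log2 difference 4.50, SE 0.45, adjusted p = 1.12e-05). CB library 1 was the lowest of the CB libraries and still far above both whole spermatid libraries.

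The linker histone gene Hist1h1a stood at 11.6, 40.1 and 34.3 CPM in the CB libraries and 0.681 and 0.555 in the whole spermatid libraries (log2 difference 5.51, SE 0.61, adjusted p = 2.25e-05). Hist1h4n, a histone H4 gene, had 40, 170 and 138 counts in the CB libraries and 0 and 0 in the whole spermatid libraries, at least 82.6-fold higher. The summed level of the list still overlapped between the kinds of library, at 155 to 407 CPM in the CB libraries and 225 to 238 in the whole spermatid libraries. Members called lower were Hist1h2bp, Hist1h3a and Hist1h4a, and they carry much of the sum in whole spermatid libraries. Hist1h2bp had 7.79 ± 2.38 CPM in CB libraries against 154 ± 6.04 (log2 difference -4.30, SE 0.22, adjusted p = 1.24e-07). Hist2h2aa2, which the list's name pattern did not take, was lower still, at 2.57, 6.77 and 6.74 CPM in the CB libraries and 561 and 538 in the whole spermatid libraries (log2 difference -6.68, SE 0.31, adjusted p = 8.81e-08). Histone genes are near-identical copies, so counts of single members are uncertain.

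**Figure D3:**
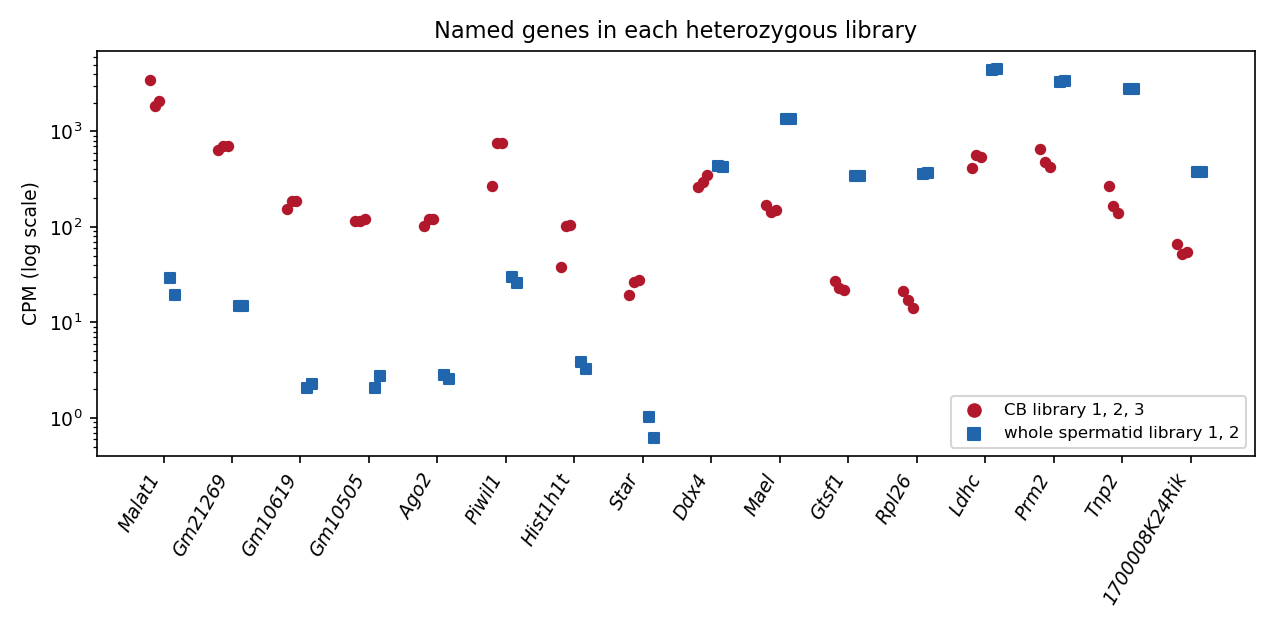
Level of 16 genes in CPM (vertical log axis) in each heterozygous library, with circles for CB libraries 1 to 3 and squares for whole spermatid libraries 1 and 2. The pachytene cluster genes Gm21269, Gm10619 and Gm10505 are tight and high in CB libraries, Piwil1 and Hist1h1t are lowest in CB library 1, and Ddx4 differs least.

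Genes for proteins of the chromatoid body went in both directions. Of the list, 14 of 25 tested members were called higher and 3 lower, with a median log2 difference of 1.09, and the summed level was 12309 to 12430.1 CPM in the CB libraries and 13528 to 13868 in the whole spermatid libraries. Relative to protein-coding genes of the same length class the median was -0.10, with 11 members above and 14 below. Ddx4, the gene of the knock-in (ENSMUSG00000021758, chromosome 13, 112598333 to 112652633), stood at 262, 297 and 348 CPM in the CB libraries and 439 and 426 in the whole spermatid libraries. All CB values were below both whole spermatid values, but the difference was under 2-fold and was not called (log2 difference -0.52, SE 0.14, adjusted p = 0.00774), and it changes sign on the TPM scale (0.31). The labels do not say which part of the gene the allele alters, so these counts do not check the allele.

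Piwil1, encoding the PIWI protein MIWI that carries pachytene piRNAs (ENSMUSG00000029423, chromosome 5, 128736071 to 128755474), stood at 267, 759 and 750.4 CPM in the CB libraries and 30.2 and 26.2 in the whole spermatid libraries (log2 difference 4.39, SE 0.44, adjusted p = 1.11e-05). CB library 1 was well below the others and still above both whole spermatid libraries. Ago2, the slicing Argonaute of microRNA silencing, stood at 101, 119.8 and 121 CPM in the CB libraries and 2.84 and 2.56 in the whole spermatid libraries (log2 difference 5.39, SE 0.18, adjusted p = 3.93e-08). Tdrd6, a tudor-domain scaffold, had 2729 ± 116 CPM in CB libraries against 1237 ± 37.6 (log2 difference 1.14, SE 0.14, adjusted p = 5.56e-05). Pabpc1, the cytoplasmic poly(A)-binding protein gene, had 2211 ± 522 CPM in CB libraries against 3321 ± 97.3 and was not called (log2 difference -0.59, SE 0.19, adjusted p = 0.0188).

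The piRNA pathway list overlaps that list, and of it 12 of 23 tested members were called higher and 3 lower, with a median log2 difference of 1.09. Mael, needed for piRNA precursors, was among its lower members, at 168, 144 and 152 CPM in the CB libraries and 1356 and 1334 in the whole spermatid libraries (log2 difference -3.12, SE 0.13, adjusted p = 6.56e-08). Gtsf1, a cofactor of PIWI slicing, stood at 26.9, 22.9 and 21.9 CPM in the CB libraries and 340.0 and 345 in the whole spermatid libraries (log2 difference -3.84, SE 0.13, adjusted p = 4.11e-08). Both were tight within groups and did not overlap between them. Relative to length the list's median was 0.71.

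RNA decay genes and mRNA storage genes went both ways, with more members called higher than lower. Of RNA decay genes, 16 of 34 tested members were called higher and 3 lower, with a median log2 difference of 0.74, a median of 0.19 relative to length. Ddx6, a helicase of P-bodies, had 285 ± 40.3 CPM in CB libraries against 16.7 ± 1.43 (log2 difference 4.09, SE 0.18, adjusted p = 6.76e-08). Smg1, a kinase of nonsense-mediated decay, had 974 ± 60.9 CPM in CB libraries against 119.8 ± 3.80 (log2 difference 3.02, SE 0.15, adjusted p = 1.05e-07). Cnot1, the scaffold of the deadenylase complex, had 2037 ± 192 CPM in CB libraries against 628 ± 1.74 (log2 difference 1.70, SE 0.15, adjusted p = 4.77e-06). Of mRNA storage and translation control genes, 13 of 27 tested members were called higher and 4 lower, with a median log2 difference of 0.91. Ybx2 and Ybx3, whose Y-box proteins bind stored messages, were lower, with log2 differences of -1.08 and -1.30. Both were under 2-fold on the TPM scale, and Ybx2 also without CB library 3 (-0.96), scaled by library totals (-0.92) and with a filter of 50 counts in every library of a group (-0.81). Of translation factor and poly(A)-binding genes, 2 of 23 tested members were called higher and 9 lower, with a median log2 difference of -0.59, and this median turned to 0.39 on the TPM scale. Eef2, the elongation factor of translocation, differed by -1.21 and was not called on the TPM scale (-0.37) or with that filter (-0.93).

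Messages of haploid differentiation were lower in CB libraries. All 8 of 8 round spermatid markers were called lower (median -2.77), and their summed level was 1046 to 1586 CPM in the CB libraries and 9699 to 10052 in the whole spermatid libraries. Prm2, a protamine gene that compacts sperm DNA (ENSMUSG00000038015, chromosome 16, 10791377 to 10792105), stood at 650.0, 478 and 428 CPM in the CB libraries and 3311 and 3335 in the whole spermatid libraries (log2 difference -2.68, SE 0.19, adjusted p = 9.01e-07). Tnp2, a transition protein gene, stood at 269, 167 and 141 CPM in the CB libraries and 2782 and 2749.9 in the whole spermatid libraries (log2 difference -3.85, SE 0.25, adjusted p = 5.69e-07). CB library 1 was the highest CB library for both, well under the whole spermatid libraries. Prm1 differed by -2.83 and Tssk6, a kinase gene of late spermiogenesis, by -3.23.

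Per length, the 3 genes of highest level in whole spermatid libraries were Tnp2, Prm2 and Prm1. Tnp2 had 1221 ± 333 TPM in CB libraries and 13096 ± 231 in whole spermatid libraries. Prm2 had 2752 ± 411 TPM in CB libraries and 12273 ± 21.4 in whole spermatid libraries, and Prm1 had 1732 ± 541 TPM in CB libraries and 10583 ± 1236 in whole spermatid libraries. Of late spermatid chromatin genes, 0 of 16 tested members were called higher and 13 lower, with a median log2 difference of -2.41, with Hils1, a spermatid linker histone gene, at 36.5 ± 5.39 CPM in CB libraries against 673 ± 23.7 (log2 difference -4.20, SE 0.15, adjusted p = 4.46e-08). Ldhc, the germ cell lactate dehydrogenase gene and the gene of most counts in whole spermatid libraries, stood at 418, 567 and 543 CPM in the CB libraries and 4420.1 and 4485 in the whole spermatid libraries (log2 difference -3.13, SE 0.17, adjusted p = 1.9e-07).

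Acrosome and tail genes followed. Of acrosome genes, 1 of 23 tested members were called higher and 17 lower, with a median log2 difference of -2.70. Spaca4, a sperm membrane protein gene, had 9.67 ± 1.73 CPM in CB libraries against 157 ± 4.86 (log2 difference -4.02, SE 0.16, adjusted p = 5.15e-08) and Dkkl1, an acrosomal glycoprotein gene, had 137 ± 8.15 CPM in CB libraries against 1205 ± 21.8 (log2 difference -3.14, SE 0.13, adjusted p = 5.78e-08). Crisp2, a cysteine-rich secretory protein gene, differed by -1.20, which was -0.40 and not called on the TPM scale, nor called with the filter of 50 counts (-0.92). Of flagellum genes, 5 of 28 tested members were called higher and 20 lower, with a median log2 difference of -1.94. Ropn1, a fibrous sheath gene, had 29.05 ± 3.41 CPM in CB libraries against 455 ± 2.24 (log2 difference -3.97, SE 0.14, adjusted p = 4.15e-08), and the dynein heavy chain gene Dnah8 went the other way with 6208 ± 1241 CPM in CB libraries against 707 ± 31.5 (log2 difference 3.13, SE 0.22, adjusted p = 9.65e-07). Odf2, of the outer dense fibres, had the most counts among flagellum genes in whole spermatid libraries and was not called (-0.70). Relative to protein-coding genes of the same length class, the medians of the round spermatid, late chromatin, acrosome and flagellum lists were -1.75, -1.41, -1.34 and -1.35.

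Housekeeping messages of short length were lower as well. Of cytoplasmic ribosomal protein genes, 1 of 83 tested members were called higher and 75 lower, with a median log2 difference of -2.84, and they summed to 1447 to 1657 CPM in the CB libraries and 11451 to 12017 in the whole spermatid libraries. Rpl26, of the large subunit, stood at 21.2, 17.3 and 14.1 CPM in the CB libraries and 359 and 371 in the whole spermatid libraries (log2 difference -4.38, SE 0.17, adjusted p = 5.17e-08). Rps7, of the small subunit, had 29.6 ± 5.66 CPM in CB libraries against 529.9 ± 16.1 (log2 difference -4.16, SE 0.17, adjusted p = 5.49e-08). Many ribosomal protein genes have processed copies that can share their reads. Of nuclear-encoded respiratory chain genes, 0 of 66 tested members were called higher and 58 lower, with a median log2 difference of -2.36. Uqcr10, of complex III, differed by -3.70, and Ndufb5, of complex I, by -3.48. Relative to length the medians shrank to -0.71 for ribosomal protein genes and -0.35 for respiratory chain genes.

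**Figure D4:**
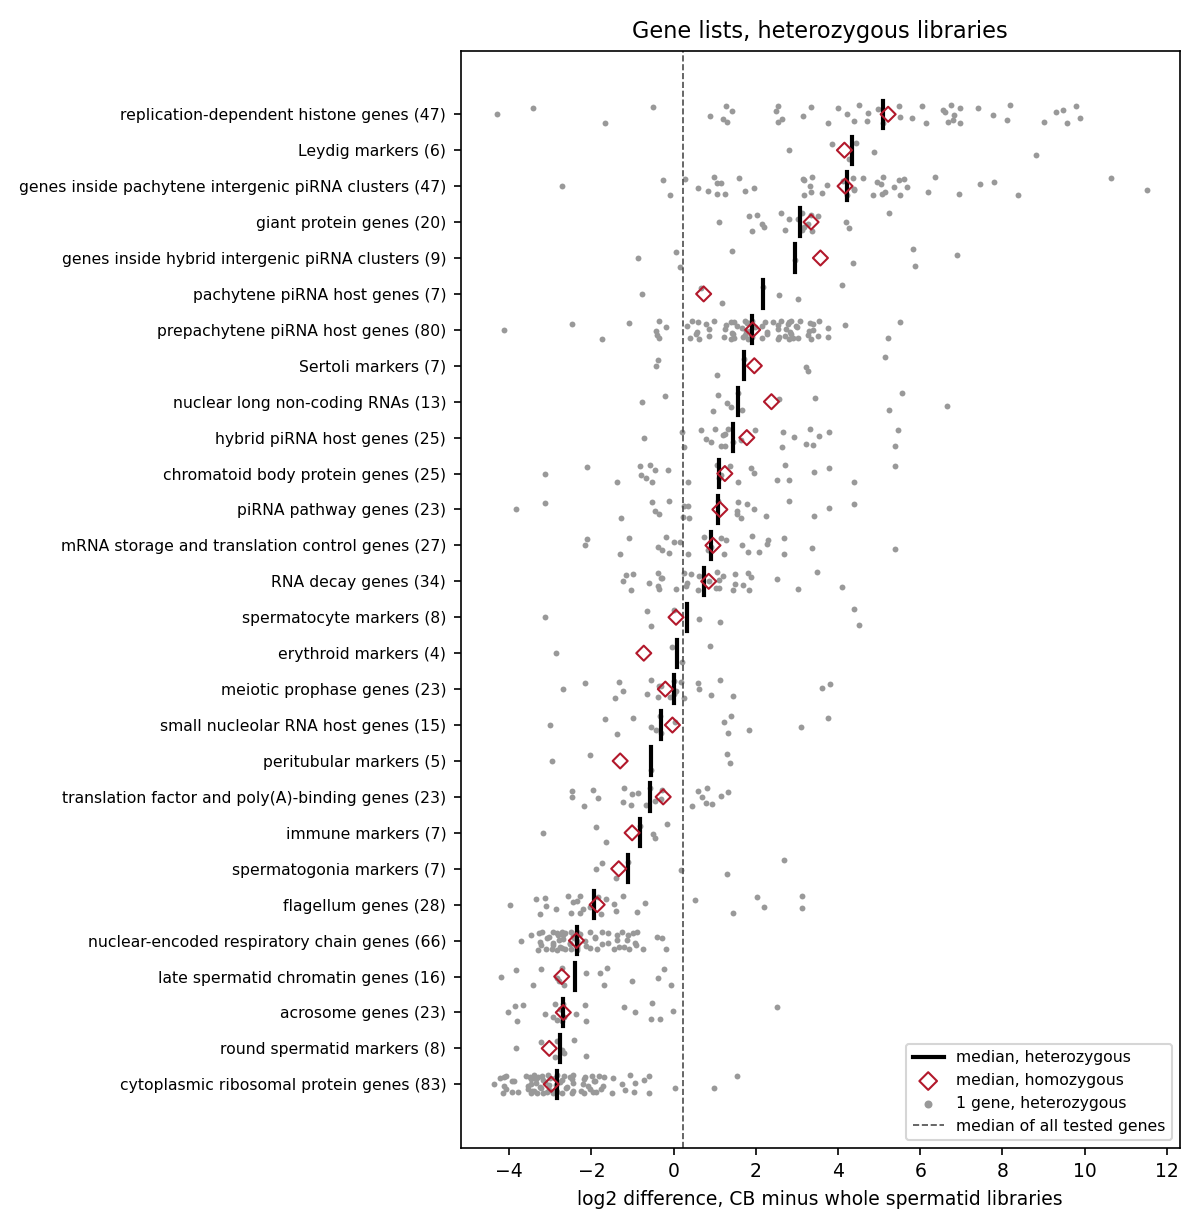
Each grey point is the log2 difference of 1 gene between heterozygous CB and whole spermatid libraries (horizontal axis), grouped by list (vertical axis, with the number tested). Bars are list medians, diamonds the medians in homozygous libraries and the dashed line the median of all tested genes, 0.24; list medians on this CPM scale run from -2.84 for ribosomal protein genes to 5.10 for replication-dependent histones.

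Above 500 bases, the median difference of protein-coding genes was larger in each longer class. The median log2 difference was -2.33 for 1273 genes of 500 to 1000 bases, -0.82 for 4597 genes of 1000 to 2000 bases and 0.41 for 6463 genes of 2000 to 4000 bases. It was 1.47 for 2326 genes of 4000 to 8000 bases and 2.47 for 238 longer genes. On the TPM scale these medians were -1.62, -0.04, 0.81, 1.44 and 2.01, the same order. The 88 genes under 500 bases broke the trend, with a median of -0.76 (-1.004 on the TPM scale), above the class of 500 to 1000 bases on both scales. Genes over 8000 bases held 7.88% to 8.98% of protein-coding counts in CB libraries and 1.25% to 1.30% in whole spermatid libraries. Homozygous libraries gave -2.53 for the class of 500 to 1000 bases and 2.72 for the longest.

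Genes of giant proteins illustrate the long end, and all 20 on the list were called higher (median 3.07, or 0.70 relative to length). Ttn, the gene of the muscle protein titin, stood at 169, 236 and 229.5 CPM in the CB libraries and 5.45 and 5.68 in the whole spermatid libraries (log2 difference 5.25, SE 0.21, adjusted p = 5.3e-08). Ahnak, which encodes a giant scaffold protein, had 68.4 ± 2.60 CPM in CB libraries against 3.56 ± 0.425 (log2 difference 4.26, SE 0.16, adjusted p = 4.9e-08). Ubr4, a ubiquitin ligase gene of high count, had 2986 ± 329 CPM in CB libraries against 842 ± 62.5 (log2 difference 1.83, SE 0.17, adjusted p = 5.25e-06). The part of kit, fragment length and input in the length trend was not tested.

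Sex-linked protein-coding genes had lower median differences than autosomal ones. Median log2 differences were -0.60 over 565 X-linked genes, of which 248 were called lower and 123 higher, and -3.56 over 112 Y-linked genes, of which 101 were called lower and 1 higher. Of 14308 autosomal protein-coding genes tested, 4457 were called higher and 3737 lower. Medians of the 19 autosomes ran from -0.16 to 0.37. The gap held within length classes. For 500 to 1000 bases the median was -3.41 for 85 X-linked genes against -2.18 for 1123 autosomal genes. For 1000 to 2000 bases it was -1.53 for 173 against -0.79 for 4384. For 2000 to 4000 bases it was 0.10 for 207 against 0.42 for 6251. For 4000 to 8000 bases the medians were closer, 1.33 for 85 against 1.48 for 2240, and in homozygous libraries this class turned round (1.74 against 1.63). These medians carry no test.

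X-linked genes were among the 15 named for the lowest differences. 4930524N10Rik (ENSMUSG00000059663, chromosome X, 154339225 to 154343392) stood at 0.271, 0.663 and 0.935 CPM in the CB libraries and 25.7 and 25.2 in the whole spermatid libraries (log2 difference -5.33, SE 0.30, adjusted p = 2.31e-07). Samt2, of a multi-copy X-linked family, had 4, 0 and 0 counts in the CB libraries and 230 and 184 in the whole spermatid libraries (log2 difference -7.05, SE 0.53, adjusted p = 1.51e-06). Samt1 and the model 4921511M17Rik carried identical counts, so reads were split between them. Y-linked genes here are largely members of multi-copy families as well. The single-copy gene Eif2s3y, which encodes a translation initiation factor subunit, stood at 9.21, 10.7 and 15.7 CPM in the CB libraries and 66.1 and 65.3 in the whole spermatid libraries (log2 difference -2.47, SE 0.20, adjusted p = 2.45e-06).

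**Figure D5:**
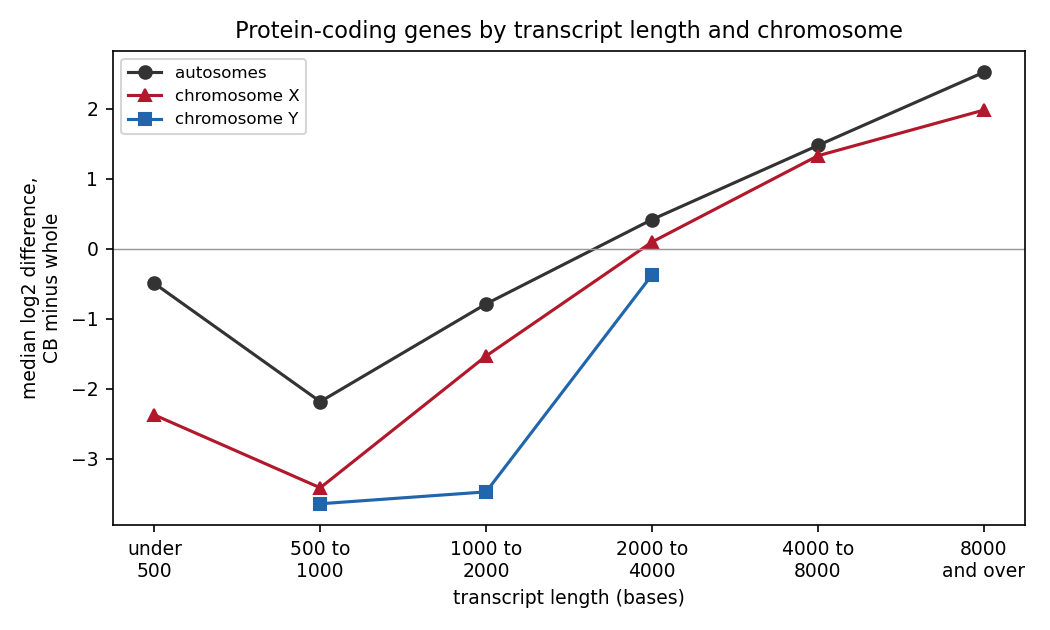
Median log2 difference between heterozygous CB and whole spermatid libraries (vertical axis) of protein-coding genes by transcript length (horizontal axis), for autosomes (circles), chromosome X (triangles) and chromosome Y (squares), drawn where at least 5 genes were tested. X-linked medians lie below autosomal ones in all 6 length classes and Y-linked medians lie lowest in each class they appear in.

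Markers of other testis cells were checked in both kinds of library. All 6 Leydig cell markers were called higher in CB libraries (median 4.34), and they summed to 68.99 to 121 CPM in the CB libraries and 8.66 to 9.87 in the whole spermatid libraries. Star, which moves cholesterol into mitochondria for steroid synthesis, stood at 19.4, 26.6 and 28.2 CPM in the CB libraries and 1.02 and 0.624 in the whole spermatid libraries (log2 difference 4.87, SE 0.30, adjusted p = 3.72e-07). Insl3, a Leydig cell hormone gene with a short transcript, stood at 32.8, 60.6 and 55.1 CPM in the CB libraries and 7.38 and 6.72 in the whole spermatid libraries (log2 difference 2.81, SE 0.27, adjusted p = 7.51e-06). The luteinizing hormone receptor gene Lhcgr had 41, 63 and 61 counts in the CB libraries and 0 and 0 in the whole spermatid libraries, at least 39.3-fold higher.

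Of Sertoli cell markers, 5 of 7 tested members were called higher and 0 lower, with a median log2 difference of 1.70, and they summed to 68.6 to 125 CPM in the CB libraries and 46.8 to 49.2 in the whole spermatid libraries. Sox9, the transcription factor gene of Sertoli cell fate, had 9.22 ± 2.02 CPM in CB libraries against 0.265 ± 0.214 (log2 difference 5.15, SE 0.45, adjusted p = 3.98e-06). Clu had 48.4 ± 20.9 CPM in CB libraries against 23.2 ± 0.3001 (log2 difference 1.06, SE 0.33, adjusted p = 0.0143), and its call was lost when any library other than CB library 1 was left out (adjusted p 0.0479 to 0.0774, some under 2-fold). Of peritubular markers, 2 of 5 were called higher and 2 lower. Actg2, a smooth muscle actin gene, carried most of their summed level and was lower, with 31.2 ± 1.70 CPM in CB libraries against 242 ± 11.9 (log2 difference -2.96, SE 0.12, adjusted p = 5.59e-08). Immune markers summed to 5.48 to 10.7 CPM in the CB libraries and 21.8 to 22.8 in the whole spermatid libraries. The part of these cells in the other differences was not tested.

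Markers of earlier germ cells did not move together. Of spermatocyte markers, 3 of 8 tested members were called higher and 1 lower, with a median log2 difference of 0.32; Piwil1 and Hist1h1t are among those higher and Ldhc is the one lower. Of meiotic prophase genes, 4 of 23 tested members were called higher and 5 lower, with a median log2 difference of -0.00, which was 0.71 on the TPM scale. Mlh3, a mismatch repair gene of crossing over, had 96.9 ± 8.86 CPM in CB libraries against 7.94 ± 0.735 (log2 difference 3.61, SE 0.16, adjusted p = 7.29e-08), and Stag3, of the meiotic cohesin, was not called (-0.32). Of spermatogonia markers, 2 of 7 tested members were called higher and 4 lower, with a median log2 difference of -1.12. Kit and Zbtb16 are the 2 called higher, so they do not stand for the list. Uchl1 went the other way, with a log2 difference of -1.93 in the fit of all 12 RNA libraries. Kit stood at 12.3, 41.002 and 41.7 CPM in the CB libraries and 13.2 and 12.5 in the whole spermatid libraries (log2 difference 1.30, SE 0.43, adjusted p = 0.019). CB library 1 overlapped the whole spermatid libraries for Kit, and the call was lost in DESeq2 (adjusted p = 0.0696) and when any library but CB library 1 was left out. Zbtb16 had 12.3 ± 1.29 CPM in CB libraries against 1.91 ± 0.137 (log2 difference 2.68, SE 0.23, adjusted p = 3.48e-06).

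The homozygous libraries gave the same contrast with other libraries made by the same kits. Of 20462 genes, 7461 (36.5%) were called higher in CB libraries and 5806 (28.4%) lower. Of the heterozygous calls, 6226 higher ones (86.9% of these and 83.4% of homozygous ones) and 4873 lower ones (89.5% and 83.9%) were called the same way. The opposite call was made for 3 and 1 genes. Across 19482 genes the log2 differences had a Pearson correlation of 0.945 and a Spearman correlation of 0.966, given as a description because genes are not replicates and the kits are shared. Some genes had close values in homozygous libraries, with 5.45 for Gm21269, 6.25 for Gm10619, 4.27 for Hist1h1t, 4.90 for Piwil1, -3.26 for Prm2 and -4.61 for Rpl26. Others moved more, with 6.59 for Gm21221, 6.77 for Aym1 and -4.96 for Samt2, against 4.13, 4.85 and -7.05 in heterozygous libraries. Malat1 was at 8.48 and Ddx4 at 1.04, which was called higher. In homozygous CB libraries protein-coding genes held 88.9% ± 0.127 of counts (n = 3).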

How the data were processed

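The authors deposited for every RNA library a table by Ensembl gene that holds expected counts, FPKM and TPM beside the gene's length and effective length, per the file headers. Per the submitters' processing notes, Trim Galore and mm10 were used. Not given in the sources used here are the aligner, the counter, their versions and the use of strand. The deposited expected counts were rounded to whole numbers; deposited TPM values were rescaled over the shared genes, and deposited FPKM values were not used. The authors also deposited read counts per piRNA cluster for small RNA libraries, per the file headers, from which cluster positions, host genes and shares of cluster reads (heterozygous round spermatids, n = 2) were taken. Totals were 14.2 to 19.1 M per heterozygous library; the floor of 3 counts covers counting error alone, because without molecular identifiers a read need not be its own molecule.

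Gene ids were joined to symbols (55104 of 55364) and to RefSeq types and positions (38560; GRCm38.p6). Counts were tested with edgeR 4.0.16 in R 4.3.3 (quasi-likelihood F test, TMM, filterByExpr by group, Benjamini-Hochberg adjustment), with DESeq2 1.42.0 and limma 3.58.1 on log2(TPM + 1) as alternatives; the script was tested on simulated data. A call needed an adjusted p under 0.05 and at least 2-fold. Levels are CPM over effective library sizes, mean ± SD (n = 3 CB, n = 2 whole spermatid). An intergenic cluster was given a gene where at least 50% of the gene lay in it. Genes named are the 15 largest differences in each direction with at least 10 CPM, the 10 of highest TPM, the 3 of most counts in each class, up to 4 examples per list, and Ddx4; genes outside this rule are said to be so, or, like Hist1h3a, Hist1h4a, Gm24120 and 4933440M02Rik, were named after their values were seen. Medians relative to length and the comparison of genotypes were added after seeing the data. Members and lists were chosen with earlier results of these data known. Isoform tables were not used, and wild-type libraries entered the fit of all 12 RNA libraries alone.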

Additional observations from a re-analysis of the deposited data

Results flagged for a closer look

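The difference between CB and whole spermatid libraries was compared between heterozygous and homozygous mice in a single edgeR fit of all 12 RNA libraries. Of 22002 genes, 46 passed an adjusted p under 0.05 and 1959 an unadjusted p under 0.05. Of the 92 genes named for the heterozygous comparison, 1 passed. Named genes at 0 in the whole spermatid libraries of both genotypes could not pass, among them Rn7sk (SE 472) and Gm10800 (SE 5448). For such genes the fit says nothing of a difference between genotypes. Ddx4 differed by -1.59 on the log2 scale (heterozygous minus homozygous, SE 0.22, adjusted p = 0.0122), from -0.56 in heterozygotes and 1.03 in homozygotes. The knock-in is in this gene, and kit and input change with the kind of library.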

How the results depend on the processing

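Of 92 named genes, 78 kept direction and call under every alternative they could be fitted in. On the TPM scale the sign turned for 5 genes that were not called: Mroh4 (0.12), Ddx4 (0.31), Pabpc1 (0.63), Odf2 (0.25) and Stag3 (0.75), and for the list medians of peritubular markers (0.072) and translation factor genes (0.39). The list median of small nucleolar RNA host genes, -0.31, turned to 0.0027 with all genes of at least 1 count, to 0.098 with the replicate block and to 0.0144 without CB replicate 3, and ran from -0.36 to 0.0144 without single libraries. Other list medians that moved by over 1.5 times on the TPM scale were Leydig markers (2.86), RNA decay (1.35), mRNA storage (1.75) and flagellum genes (-1.29). So did those of spermatocyte (1.28), spermatogonia (-0.46), immune (-0.074) and erythroid markers (0.28), meiotic prophase genes (0.71) and replication-dependent histones (3.20). The immune and erythroid medians, -0.81 and 0.090, became -2.90 and -2.59 with the filter of 50 counts. Genes could pass that filter through the group where they are high, so these medians cover a selected part of each list. Genes lower in CB libraries numbered 2988 instead of 5444 in heterozygotes and 3053 instead of 5806 in homozygotes on the TPM scale. With at least 50 counts in every library of a group, where fewer genes were tested, genes higher numbered 4198 instead of 7161 and 4464 instead of 7461. Scaling by library totals gave 7711 higher and 4842 lower, and DESeq2 6818 and 5395.

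Leaving out each library in turn gave 6586 to 7005 heterozygous genes higher and 5242 to 5388 lower, and 7120 to 7563 and 5592 to 5821 in homozygotes; a lone whole spermatid library was taken to vary like the CB libraries. The CB minus whole share of protein-coding counts, -13.3 percentage points, became -24.4 in TPM and -0.90 without the 20 genes of most counts in each library, and ran from -14.0 to -12.9 without single libraries. That of long non-coding RNA, 0.057, became -1.13 in TPM and ran from -0.012 to 0.105. That of small structural RNA, 0.137, became 8.41 in TPM, 0.173 without those 20 genes, and 0.121 to 0.149 without single libraries. The cause of these moves was not tested further. TPM is uncertain for genes near or under the fragment length. Gm22513, a structural RNA gene of 164 bases, had means of 18.96 CPM and 8890 TPM in CB libraries. In each CB library 40 to 43 genes had counts but an effective length of 0, against 0 genes in the whole spermatid libraries.

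Same-numbered libraries did not deviate together (correlations -0.04 and -0.05 in heterozygotes), so numbers were not taken to pair them; with the replicate block 6753 genes were higher and 5344 lower, and Clu (0.77) and Kit (0.82) fell under 2-fold. Depth limits genes of few counts, and arms of 3 and 2 libraries limit every estimate of spread.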
